A study of Mus musculus with 25 samples.

Results

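The ribosomal protein genes encode the protein shell of the cytosolic ribosome. They were chosen by symbol: all genes named Rpl or Rps plus a number (with or without a final a or x), or Rplp0 to Rplp2, whose FPKM value carried the status OK in each of 25 libraries. FPKM is fragments per kilobase of transcript and per 1e6 mapped fragments. This gave 76 genes of the 22985 symbols kept, 46 of the large subunit and 30 of the small subunit. All 76 matched symbols had the status OK everywhere, and all 76 passed the filter on low values, which left 11532 genes for testing.

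Ribosomes hold most of these proteins in equal numbers, and cells make their transcripts in large amounts and in step with one another. Most of the mRNAs begin with a run of pyrimidines at the very 5′ end, the 5′ terminal oligopyrimidine (TOP) motif, through which mTOR signalling and the RNA-binding protein LARP1 control their translation and stability. T cells leaving quiescence raise ribosome production, in which MYC drives the genes that make and assemble ribosomal RNA. Several ribosomal proteins have further roles: RPL5 and RPL11 bind MDM2 when assembly fails, RPS6 is phosphorylated downstream of mTOR, and RPL22 is needed for the development of alpha-beta T cells.

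The study measured RNA of mouse T cells from spleen and lymph node of the C57BL/6 strain. Treg are regulatory T cells and Tconv are conventional T cells. NF-kB is a family of transcription factors in which p65 (gene Rela) and c-Rel (gene Rel) are subunits. Resting groups were WT Treg (4 libraries), Treg with the genotype p65KO (3), c-RelKO (2) or DKO (2, lacking both), and WT Tconv (2). Stimulated groups received CD3 and CD28 antibodies at 2 µg/ml with IL-2 for 3 h: WT Treg (2), DKO Treg (2), WT Tconv (2), p65KO Treg (1) and c-RelKO Treg (1). A set of 4 stimulated libraries treated with TAT-Cre, a recombinase made to enter cells, held a WT Tconv and a WT Treg control and the libraries labelled FoxP3 del and NFkB del, 1 each. The promoter that drives deletion in the knockout animals and the animals' ages are not given in the sources read here. Nothing says that replicates came from separate animals, so p-values measure the spread between these libraries, which may be technical.

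The mRNA starts of 7 members named below are shown to display the TOP motif. They were taken from the 13 members whose window begins with C and 4 more pyrimidines, so they were chosen to hold it, and most members' windows did not begin this way (Rpl24, Rpl39, Rpl41, Rps19 and Rps24 among those that did not). Each line gives 10 bases before the annotated start and 20 bases from it, 5′ to 3′ on the strand of the gene, from RefSeq on GRCm38.p6. Capitals mark the unbroken pyrimidine run that begins at the first transcribed base.
Rps6, chr4:86857348-86857377, minus strand: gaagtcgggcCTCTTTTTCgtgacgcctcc
Rplp2, chr7:141447641-141447670, plus strand: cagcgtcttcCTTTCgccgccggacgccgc
Rpl14, chr9:120571507-120571536, plus strand: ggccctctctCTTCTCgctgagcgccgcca
Rpl28, chr7:4792955-4792984, plus strand: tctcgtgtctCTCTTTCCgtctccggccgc
Rpl35a, chr16:33056472-33056501, plus strand: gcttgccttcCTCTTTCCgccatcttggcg
Rpl38, chr11:114668570-114668599, plus strand: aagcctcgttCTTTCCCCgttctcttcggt
Rps15a, chr7:118116128-118116157, minus strand: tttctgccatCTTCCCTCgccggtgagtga
Of the 76 members, 56 matched a RefSeq promoter window of 250 bases before to 50 bases after a start, with 66 windows in all. A run of at least 7 pyrimidines between 10 bases before and 50 bases after the start was found in 74.24% of these windows, against 32.63% of all 32851 windows of the same length. A first base C followed by 4 pyrimidines stood in 19.7% of the members' windows and 2.51% of all windows. The ETS-type motif CCGGAAG, searched on both strands, was found in 36.36% against 8.86%, and AAGATGGC, the letters bound by YY1, in 10.61% against 2.75%. The E-box CACGTG, which MYC can bind, was found in 12.12% against 7.15%. A kappa-B site, the type of site that NF-kB binds, was found in 10.61% against 8.46% of all windows. These shares describe letters in the windows, not sites in use.

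Before the comparisons, the libraries have to be set apart by their numbers in the labels. The numbers form runs, of 2 libraries (run 1), 2 (run 2), 7 (run 3) and 10 (run 4), which the labels do not call batches. Implied depth, worked out from the confidence bounds of the FPKM values, was 15.4 to 22.6 (in 1e6 fragments) in runs 1 to 3 and the TAT-Cre set and 34 to 52.8 in run 4. Rel was 1.76 to 2.23 FPKM in the libraries labelled c-RelKO and DKO and at least 24.55 in the other libraries. Rela, targeted in p65KO and DKO, was 58.0, 69.26 and 79.81 FPKM in resting p65KO Treg against 64.87, 99.08 and 124.0 in WT Treg of runs 1, 2 and 4, and 74.05 against 118.0 stimulated. In DKO Treg it was 76.06 and 56.28 at rest against 129.7 and 124.0 in WT Treg, and 106.9 and 99.02 against 126.3 and 118.0 stimulated. Rela was thus the lower value in each pair but still present, and a gene-level value need not show a deleted part. Foxp3 was 266 FPKM in the library labelled FoxP3 del and 86.7 in its WT Treg control, which goes against that label, though the same limit applies. The T cell markers summed to 955.0 to 2713 FPKM over the libraries, and Foxp3 was 0.54 to 2.55 FPKM in Tconv and 129 to 351 in WT Treg outside the TAT-Cre set. In the libraries labelled DKO Treg it was 8.01 and 21.2 FPKM at rest and 6.34 and 8.31 stimulated, against 344.3 and 350.9 and then 335.9 and 294.6 in WT Treg of the 2 runs. For its defining gene the DKO libraries thus go against the name Treg, and each result on DKO Treg below is a result on the libraries so labelled. Erythroid, myeloid and B cell markers were highest in c-RelKO Treg replicate 2. There the 7 erythroid markers summed to 20700 FPKM, the 9 myeloid markers to 1786 and the 7 B cell markers to 249.6. Erythroid markers also summed to 632.4 FPKM in WT Treg replicate 2, 384.7 in DKO Treg stim replicate 2 and 1626 in the library labelled NFkB del, and myeloid markers to 826.4 in p65KO Treg replicate 3. Cytotoxic and NK cell markers were highest in DKO Treg stim replicate 2, at 338.0 FPKM. They summed to 297.7 FPKM in p65KO Treg replicate 1, against 53.73 in WT Treg replicate 1 of its run, and to 60.28 in c-RelKO Treg replicate 2.

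Ribosomal protein transcripts stood at separate levels in the runs. Their median level on the log2(FPKM + 1) scale was 8.70 to 9.63 in the 11 libraries of runs 1 to 3, 7.29 to 8.0 in the 10 libraries of run 4 and 7.22 to 7.44 in the TAT-Cre set. The ranges of run 4 and of runs 1 to 3 did not overlap. Over the 7 groups present in runs 3 and 4, 72 of 76 members were lower on average in run 4, 66 of them in every group, with a median difference of -1.24. The median over all 11532 genes was 0.04, and 9.01% of all genes were lower in every group. Any mean over libraries of unequal run therefore mixes run and group: WT Treg and p65KO Treg have libraries of runs 1 and 2 and the other groups have none. For this reason each comparison below is given first within runs, then by the limma fit without a run term, then by the same fit with a term for the run (the run-block fit).

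**Figure D1:**
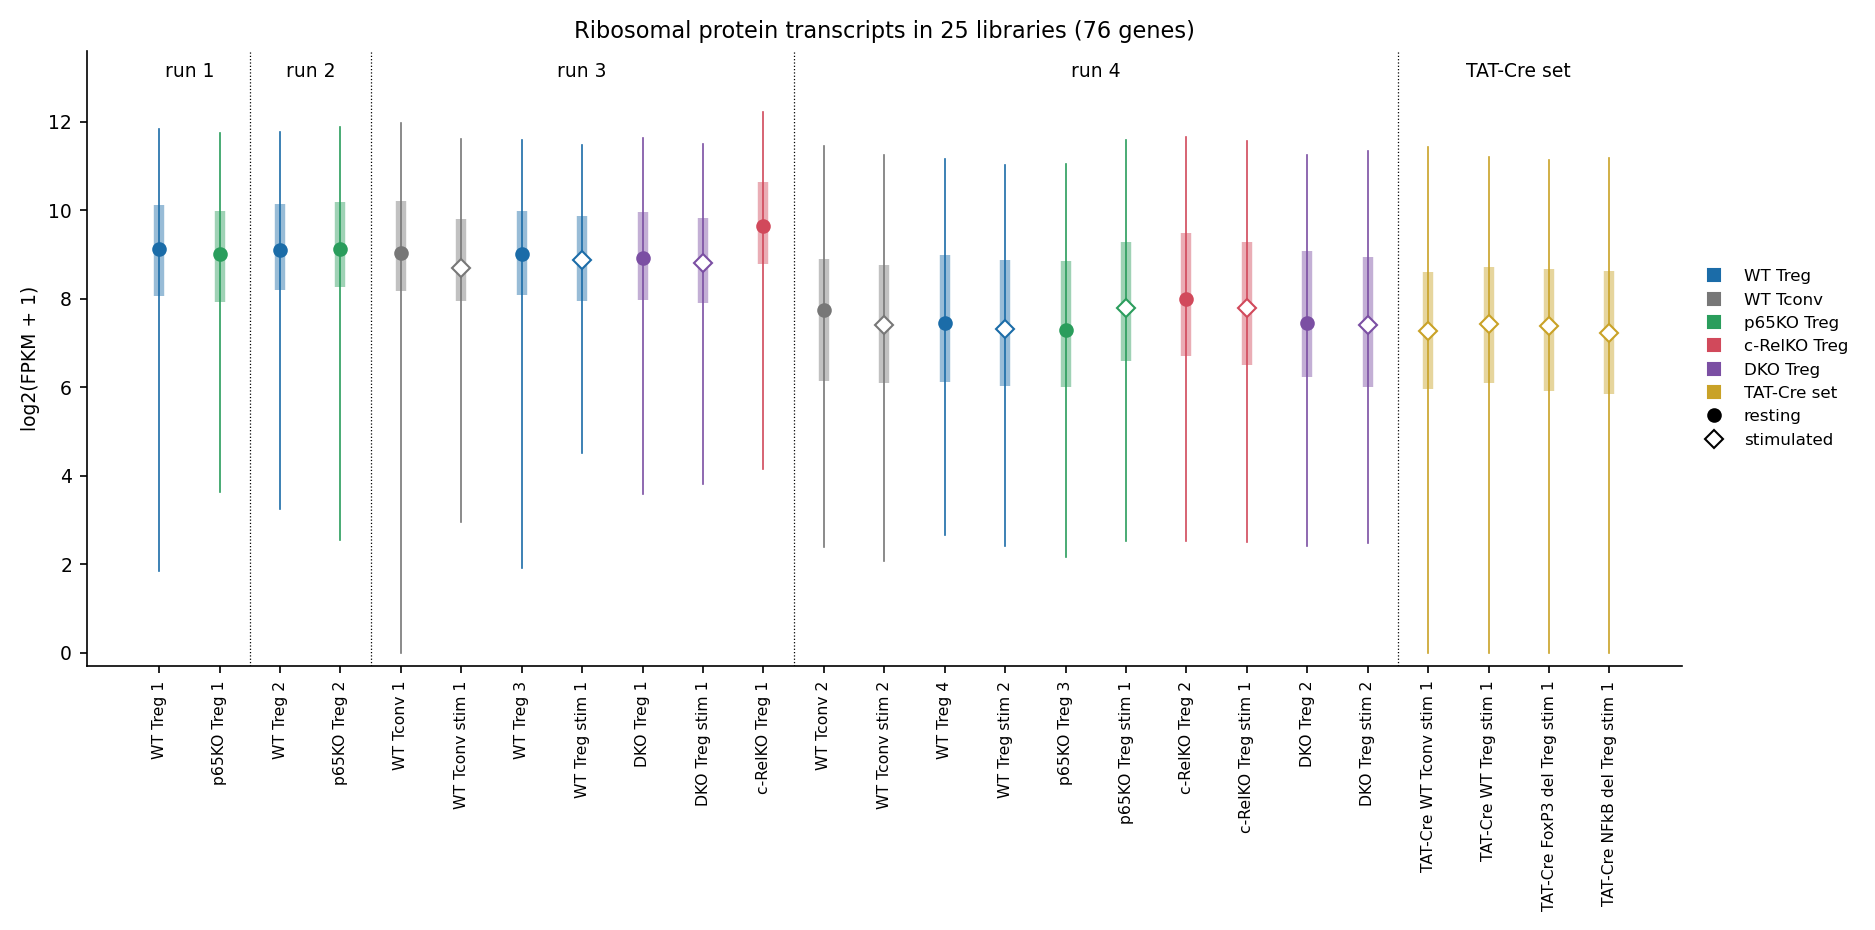
Level of the 76 ribosomal protein genes in each of 25 libraries, log2(FPKM + 1) on the y axis, libraries in the order of their numbers on the x axis. Circles (resting) and diamonds (stimulated) are medians over the 76 genes, thick bars the middle 50% and thin lines the full range; medians of runs 1 to 3 lie between 8.70 and 9.63 and those of run 4 between 7.29 and 8.0.

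The shift between runs was unequal among members. Rpl8, a large-subunit protein at the peptidyl transferase centre, was 1990 to 3117 FPKM in the 7 libraries of run 3 and 1975 to 3223 in the 10 of run 4, so the ranges overlapped almost wholly. Rps3, at the mRNA entry channel, differed by 0.13 on the log2 scale between the runs over the 7 groups (SD 0.08), and Rpl29 by 0.15 (SD 0.07). At the other end, Rps12 was 48.8 to 100.9 FPKM in run 3 and 3.45 to 5.35 in run 4, a difference of -3.53 (SD 0.31). Rps29 differed by -3.98 (SD 0.75), Rpl9 by -3.20 (SD 0.08), Rpl38 by -2.82 (SD 0.14) and the stalk protein Rplp2 by -2.80 (SD 0.47). Each of these was lower in run 4 in 7 of 7 groups.

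Members with many near-identical copies in the genome were compared with those with few, because reads of processed pseudogenes can be shared with the parent gene. Across GENCODE M21, 921 processed pseudogenes matched a member over at least 80% of its coding sequence at 90% identity or more, with a median of 8 per member. At 95% identity or more there were 529. The 12 members with at most 1 such pseudogene at 95% had a median run difference of -0.22 and the 15 members with at least 10 had -1.49. Exceptions stood on both sides: Rplp2 had 0 pseudogenes and a difference of -2.80, and Rpl29 had 25 and 0.15. Spearman's rho between the run difference and the number of pseudogenes at 95% was -0.26, and between the run difference and the coding length 0.31, across 76 genes, which share libraries and are not independent replicates. Between run difference and mean level rho was 0.61. This mean includes the libraries of the runs compared, so a larger fall between the runs itself lowers the mean. The rho is thus partly built in, and no dependence on level is concluded from it. The part of pseudogenes and of length in the run difference was not tested.

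**Figure D2:**
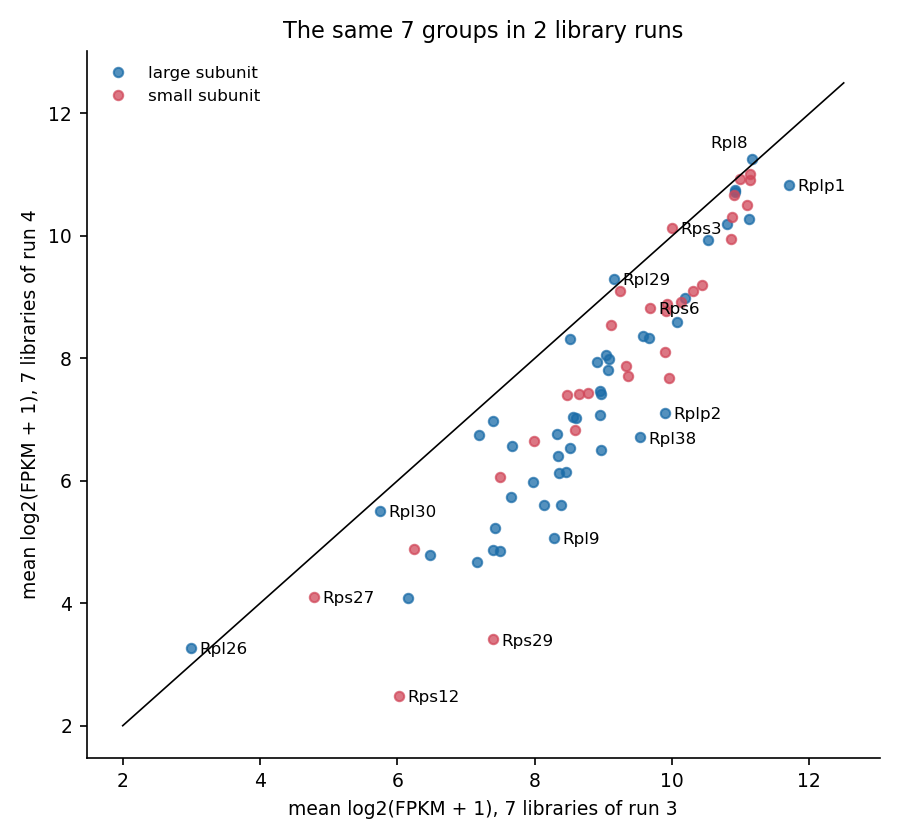
Mean log2(FPKM + 1) of each of the 76 genes over the 7 libraries of run 3 (x axis) and the 7 libraries of the same groups in run 4 (y axis), with the line of equality. Most points lie below the line; Rpl8, Rps3 and Rpl29 lie close to it and Rps12, Rps29 and Rpl9 farthest below.

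Mean levels over the 25 libraries ran from 8.50 FPKM for Rpl26 to 2545 for Rplp1. The 3 members with the highest mean log2 level were Rplp1, an acidic protein of the ribosomal stalk (1241 to 4782 FPKM), Rpl8 (1975 to 3223) and Rps9 of the small-subunit body (1733 to 3413). The 3 lowest were Rps27 (9.86 to 219 FPKM), Rps12 (3.45 to 100.9) and Rpl26 (at most 29.5). The order turned with the run: Rplp1 was above Rpl8 in run 3 (11.70 against 11.16 on the log2 scale) and below it in run 4 (10.84 against 11.26), and Rps29 was above Rps27 in run 3 (7.39 against 4.78) and below it in run 4 (3.41 against 4.11). Rpl26 was listed under 0.01 FPKM in 5 libraries, WT Tconv replicate 1 and the 4 of the TAT-Cre set, so no fold is given for it. In all, 15 members had a mean of at least 1000 FPKM over the 25 libraries and 11 a mean under 100. FPKM divides by length, but how the authors' program divided reads among copies of a gene is not recorded, so an order of levels between members is an order of these estimates.

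Relative to the median of all members in the same library, Rpl26, Rps29, Rps12, Rps27 and Rpl9 varied the most over the 21 libraries of runs 1 to 4, with SDs of 1.5, 1.33, 1.12, 1.11 and 0.88 on the log2 scale. The median SD was 0.37 and the lowest, of Rpl23a, 0.08. Rps27 owed much of its spread to 1 library: it was 219 FPKM in WT Tconv replicate 1 and 9.86 to 42.8 in the other 24 libraries. Rps29 was 82.9 to 280 FPKM in runs 1 to 3, 4.36 to 16.2 in run 4 and 0.785 to 2.29 in the TAT-Cre set.

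Resting c-RelKO Treg had higher ribosomal protein transcripts than the WT Treg library of the same run: the median over the members was 0.64 higher in run 3 (75 of 76 members higher) and 0.53 higher in run 4 (73 of 76). Over all genes the same medians were -0.02 and -0.09. Counting genes higher in both pairs gave 73 of 76 members and 33.5% of all genes. In the fit without a run term, 0 of 76 members were called at an adjusted p under 0.05 (limma with Benjamini-Hochberg adjustment over all genes), against 10.6% of all genes, and 4 members had an unadjusted p under 0.05. In the run-block fit 72 of 76 rose and none fell, against 15.8% of all genes higher and 25.9% lower; the median difference was 0.59, and 0.18 without the run term. The 4 members not called with the block were Rpl26, Rps19, Rps27 and Rps29, of which Rps27 was lower.

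The members with the smallest p-values in the block fit were 3 proteins of the large subunit. Rpl24, which lies at the interface of the subunits, was 288 FPKM in c-RelKO and 162 in WT Treg of run 3, and 44.8 and 28.7 in run 4. It rose by 0.75 ± 0.08 (SE; adjusted p = 4.21e-05, limma with run block). Rpl39, at the exit tunnel, was 1761 against 1006 FPKM in run 3 and 612.7 against 374.5 in run 4, and rose by 0.76 ± 0.08. Rpl27a was 518.7 against 293.3 FPKM and 157.8 against 99.8, and rose by 0.77 ± 0.09. Within each run the c-RelKO library was the higher one for all 3. Each genotype had 1 library in run 3 and 1 in run 4, and the run 4 value was the lower one.

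Members with roles outside the ribosome followed. Rps6 was 1199 FPKM in c-RelKO against 836.3 in WT Treg of run 3, and 651.6 against 456.8 in run 4. The MDM2-binding proteins Rpl5 (527.2 against 360.4, and 170.1 against 130.8 FPKM) and Rpl11 (618.9 against 394.6, and 147.8 against 113.1 FPKM) were higher in both pairs. Rpl22 was 276.2 against 162.1 and 170.9 against 120.7 FPKM, and its paralog Rpl22l1 202.4 against 137.1 and 100.3 against 83.1 FPKM. Rps27a, made as a fusion with ubiquitin, was 260.9 against 173.2 FPKM in run 3 and 82.1 against 62.8 in run 4. The stalk proteins Rplp0, Rplp1 and Rplp2 were likewise higher: Rplp1, for example, was 4782 against 3059 and 2550 against 1690 FPKM. All of these were called in the block fit.

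Other genes of the cytosolic translation machinery were counted in the same fits. Among ribosomal genes whose symbols do not match the rule, Rpsa rose by 0.71, Gnb2l1, which encodes the scaffold RACK1, by 0.64 and Fau by 0.45 with the block. Of 15 cytosolic translation factors listed as having TOP mRNAs, 14 rose and 1 fell with the block, against none and 1 without it. Over all genes 15.8% were higher and 25.9% lower with the block. The poly(A)-binding protein gene Pabpc1 rose by 0.89 and the elongation factor gene Eef1a1 by 0.68, and the helicase gene Eif4a2 fell by 0.96. Of 34 genes that build ribosomes, 1 rose and 6 fell with the block, with a median of -0.06, and 0 were called without it. Of 76 mitochondrial ribosomal protein genes 14 rose and 4 fell with the block, with a median of 0.07, and 1 fell without it. Among the regulators in the block fit, Mtor fell by 0.80 and Rps6kb1, the S6 kinase, by 0.56, and Myc differed by -0.16 and was not called.

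Other values moved with the same libraries. The 3 nuclear-retained transcripts counted for RNA quality (Malat1, Neat1 and Leng8) summed to 64.6 and 82.6 FPKM in c-RelKO Treg and 572 and 453.4 in the WT Treg libraries of these runs. They summed to 51.1 and 69.8 FPKM in DKO Treg of the same runs. In c-RelKO Treg replicate 2 the erythroid markers Hba-a1 and Hbb-b1 were 13320 and 4113 FPKM; in replicate 1 the 7 erythroid markers summed to 5.21 FPKM, with Hba-a2, Hbb-b1 and Slc4a1 at or near 0, and the members' median difference in its run was 0.64. The 9 myeloid markers summed to 198.9 FPKM in replicate 1 and 1786 in replicate 2, against 59.15 and 86.55 in WT Treg. The 6 cytotoxic and NK cell markers summed to 131.0 and 60.28 FPKM against 11.75 and 17.35, and the 6 T cell markers to 1906 and 1201 against 1135 and 955.0. With the block 7 of 9 myeloid, 5 of 6 cytotoxic and 4 of 6 T cell markers rose, and 1 T cell marker fell. The T cell median, 0.66, was near that of the members. The 8 cell cycle genes summed to 540.6 and 410.1 FPKM in c-RelKO Treg and 295.6 and 310.7 in WT Treg. The part of nuclear-retained RNA, of markers of other cells and of cell cycle genes in the result was not tested. A block fit added after the values were seen left out 3 libraries with markers of other cells. They were WT Treg replicate 1, p65KO Treg replicate 3 and c-RelKO Treg replicate 2. The members' median was 0.64 in that fit, with only replicate 1 of resting c-RelKO Treg left. The fit kept WT Treg replicate 2 and DKO Treg stim replicate 2. Their erythroid markers summed to 632.4 and 384.7 FPKM, above the 188.6 of WT Treg replicate 1. It also kept p65KO Treg replicate 1, whose cytotoxic and NK cell markers summed to 297.7 FPKM. In bulk RNA a change in the mix of cells and a change in RNA per cell cannot be told apart.

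**Figure D3:**
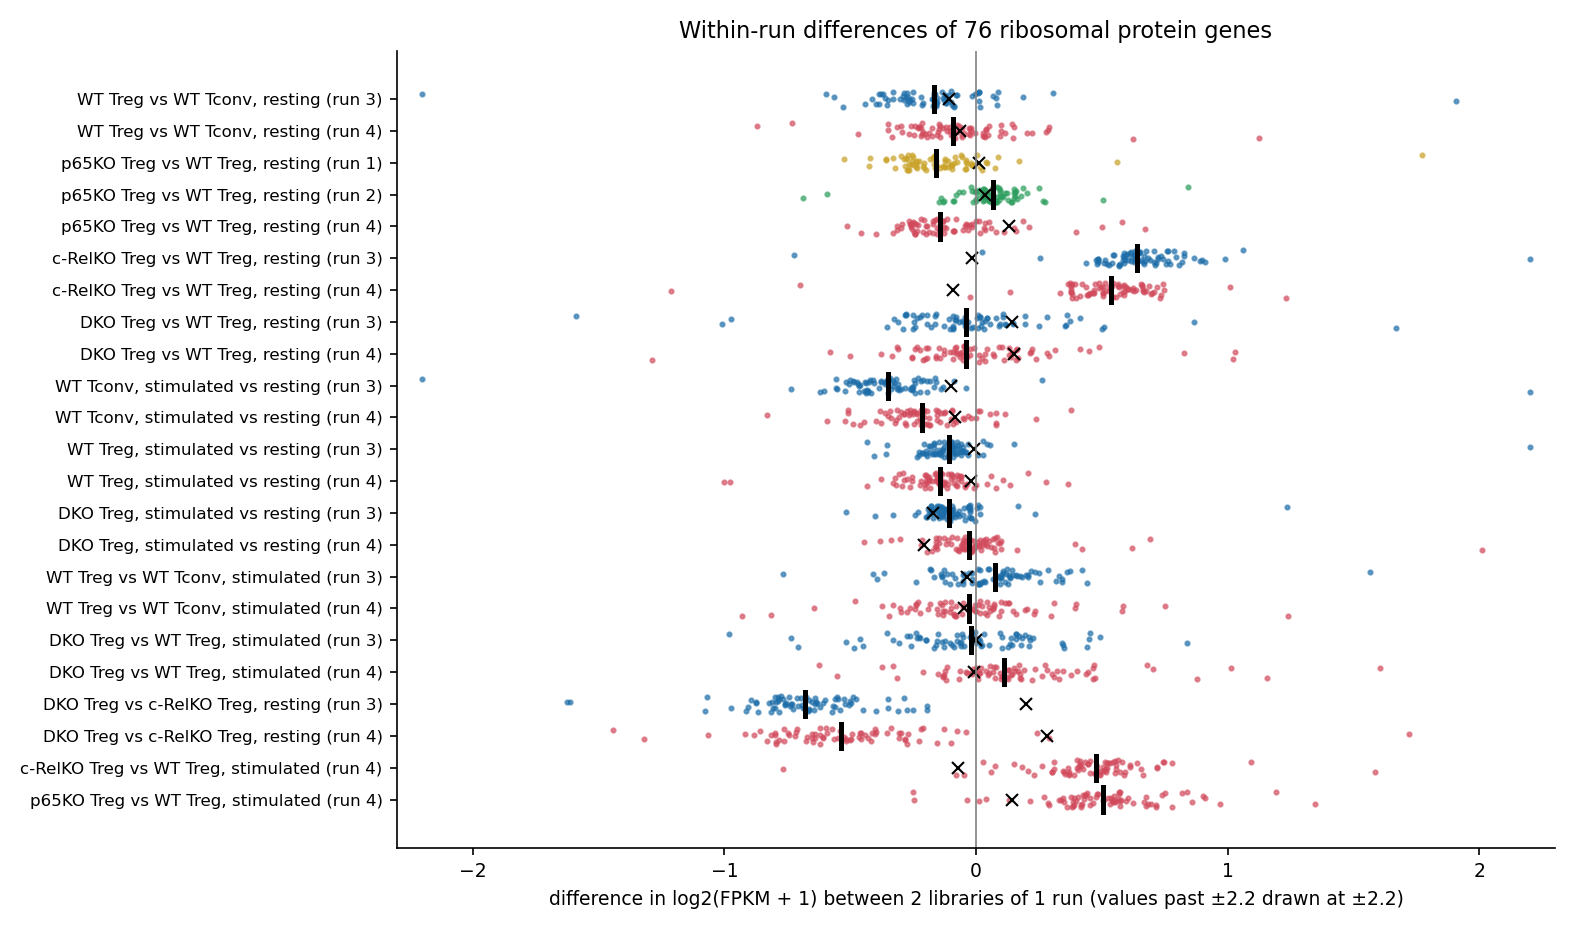
Differences in log2(FPKM + 1) between 2 libraries of 1 run for the 76 genes (points, coloured by run), with the median of the 76 (bar) and of all genes tested (cross). The rows of c-RelKO against WT Treg sit to the right of 0, at medians of 0.64, 0.53 and, stimulated, 0.48, and those of DKO against c-RelKO to the left.

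Stimulated c-RelKO Treg, 1 library of run 4, showed the same direction against stimulated WT Treg of that run. The members' median was 0.48 higher, with 73 of 76 members higher, against 39.0% of all genes higher. These libraries are not among those of the resting comparison. In the block fit, which assumes that a lone library varies like the other groups, 30 members rose and none fell, against 1.29% of all genes higher and 7.26% lower; 0 were called without the block, against 0.347% of all genes, and 1 had an unadjusted p under 0.05. Without the block the members' median was -0.29, of opposite sign, where the stimulated WT Treg mean also includes run 3. Without either WT Treg stim library 4 or 5 members were called. All 30 were among the 72 of 76 members called at rest, so almost no other outcome was possible. The smallest p-values were those of Rpl35a (92.6 against 62.9 FPKM), Rps20 (1369 against 863.7) and Rpl38 (150.9 against 89.5). The nuclear-retained transcripts summed to 102.8 FPKM in this c-RelKO library and 486.9 in the WT library; their part was not tested. Its erythroid markers summed to 2.74 FPKM against 5.18, and its myeloid markers to 83.19 against 80.61.

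Resting DKO Treg differed from WT Treg by a median of -0.04 in run 3 and -0.04 in run 4 over the members, with 34 and 33 of 76 higher, against 0.14 and 0.15 over all genes. Without a run term 0 of 76 members were called, against 33% of all genes, and 0 had an unadjusted p under 0.05. With the block 8 rose and 4 fell, against 37.1% of all genes higher and 24.1% lower, so the members' shares lay below the background in both directions. The members' median without the run term was -0.43. The same block fit with libraries scaled by size factors, added after the values were seen, gave 4 higher and 24 lower, with a median of -0.15, so the balance of directions rests on the scaling.

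In both runs 27 of 76 members were higher in DKO than in WT Treg and 36 were lower, against 51.9% and 34.6% of all genes. The run 3 and run 4 differences of DKO and WT Treg correlated across the 76 members with a Spearman's rho of 0.75 (Pearson's r 0.72), a description over genes that share libraries. The same values were 0.003 (r -0.04) for c-RelKO and WT Treg and 0.50 (r 0.14) for stimulated DKO and WT Treg. No such correlation was computed over all genes. Rpl41, the smallest ribosomal protein, was 2849 FPKM in DKO and 1561 in WT Treg of run 3, and 2415 and 1361 in run 4, and rose by 0.85 ± 0.15 (SE; adjusted p = 0.000546, limma with run block). Rpl14 was 396.8 against 280.1 and 372.7 against 265.4 FPKM, a rise of 0.47 ± 0.10, and Rps26, near the mRNA exit, 1171 against 914.8 and 543.0 against 436.0 FPKM, a rise of 0.37 ± 0.08. For these 3 genes the DKO library was the higher in each run. Rps24 fell by 0.43 ± 0.09, from 1185 to 927.8 FPKM in run 3 and from 557.2 to 393.6 in run 4. Rps19, mutated in Diamond-Blackfan anaemia, fell by 0.96 ± 0.21 (506.9 to 167.5 and 133.8 to 107.6 FPKM), most of it in run 3. Rpl17 fell by 0.30 ± 0.09.

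After stimulation the same contrast was measured in libraries not used at rest. The members' median differed by -0.02 in run 3 and 0.11 in run 4. Without a run term 0 of 76 were called, against 32.7% of all genes, and 1 had an unadjusted p under 0.05; with the block 13 rose and 5 fell, against 31.4% of all genes higher and 31.3% lower. The 18 calls became 8 without WT Treg stim replicate 1, 7 without WT Treg stim replicate 2 and 6 without DKO Treg stim replicate 2. Of the 8 members higher at rest and the 13 higher after stimulation, 6 were shared (75% and 46.2%): Rpl10, Rpl14, Rpl41, Rplp0, Rps2 and Rps26. Rps24 was the 1 member lower in both, of 4 and 5. Over all genes 37.1% were called higher at rest and 31.4% after stimulation. The genes shared over all genes were not counted, so no conclusion on the members is drawn from this overlap. Rpl41 was 2498 against 1396 FPKM in run 3 and 2586 against 1279 in run 4, a rise of 0.93 ± 0.16. Rpl10 was 216.0 against 157.7 and 116.8 against 72.5 FPKM, a rise of 0.57 ± 0.10. Rps15a (53.2 against 73.5, and 19.5 against 30.6 FPKM) and Rpl12 (179.8 against 257.6, and 37.5 against 55.6 FPKM) fell, both by 0.54 on the log2 scale.

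Paralogs outside the rule were called too. Rpl39l rose by 1.90 at rest and 1.92 after stimulation in the block fit, and Rps27l, a target of p53, by 1.19 and 1.02. Rpl22l1 differed by 0.04 and -0.03 and was not called. Mitochondrial ribosomal protein genes, a separate set of genes that serve the ribosome inside mitochondria, rose in 66 of 76 at rest and 69 of 76 after stimulation with the block (medians 0.68 and 0.75), and in 44 and 46 without it. Cell cycle genes moved with DKO: the 8 counted summed to 1042 and 1424 FPKM at rest against 295.6 and 310.7 in WT Treg. The 6 cytotoxic and NK cell markers summed to 121.9 and 214.0 FPKM at rest against 11.75 and 17.35. Stimulated, they summed to 185.4 and 338.0 against 13.22 and 17.54. The 9 myeloid markers summed to 168.8 and 185.6 FPKM at rest against 59.15 and 86.55. Stimulated, they summed to 118.1 and 198.5 against 55.07 and 80.61. The part of these 3 lists in the differences of the members was not tested.

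DKO and c-RelKO Treg were compared directly, a comparison added after the values were seen. The members' median was 0.68 lower in DKO in run 3 (76 of 76 lower) and 0.54 lower in run 4 (73 of 76, all 73 lower in both pairs, against 26.5% of all genes), while over all genes it was 0.20 and 0.28 higher. Without a run term 0 of 76 were called, against 25.5% of all genes, and 3 had an unadjusted p under 0.05. With the block 66 fell and none rose, against 17.8% of all genes lower and 42.5% higher, with a median of -0.62. Rps24 fell by 1.07 ± 0.10, from 1958 FPKM in c-RelKO to 927.8 in DKO in run 3 and from 823.6 to 393.6 in run 4. Rpl17 fell by 0.82 ± 0.09 and Rpl21 by 0.69 ± 0.08. Rpl41 (0.02) and Rpl28 (0.05) were not called, and their differences had opposite signs in runs 3 and 4. These were -0.19 and 0.24 for Rpl41, and -0.20 and 0.29 for Rpl28. This comparison, c-RelKO against WT and DKO against WT share libraries and are not independent.

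**Figure D4:**
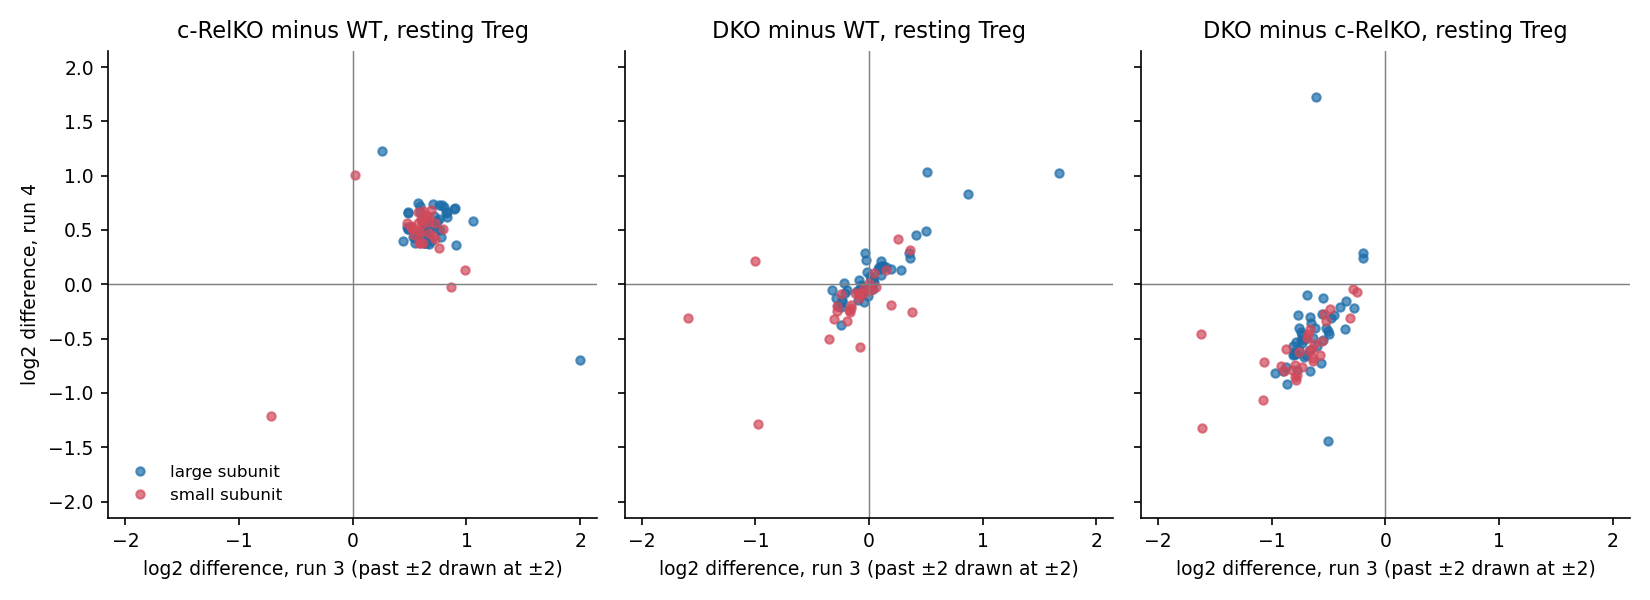
Log2 difference of each of the 76 genes in run 3 (x axis) and run 4 (y axis), for resting c-RelKO minus WT, DKO minus WT and DKO minus c-RelKO Treg, with values past ±2 drawn at ±2. Members of c-RelKO minus WT cluster in the upper right quadrant, those of DKO minus c-RelKO in the lower left, and those of DKO minus WT lie on both sides of 0.

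In resting p65KO Treg no member was called. Within runs 1, 2 and 4 the members' median differed from WT Treg by -0.16, 0.07 and -0.14, so the direction was not the same in the 3 pairs. Only 4 members were higher and 11 lower in every pair, against 32.5% and 15.3% of all genes. None of the 76 was called without the block, against 0.0434% of all genes, nor with it, against 7.08% of all genes higher and 1.74% lower; 0 and 7 had an unadjusted p under 0.05. The smallest p in the block fit was that of Rpl35a, which was 323.4 against 395.0 FPKM in run 1, 355.2 against 389.1 in run 2 and 57.6 against 68.6 in run 4 (difference -0.21 ± 0.06, adjusted p = 0.0534). All 3 p65KO libraries were the lower of their pair for this gene. Rpl28 (0.19 ± 0.13) had the smallest p among members that were higher.

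Stimulated p65KO Treg was 1 library of run 4. Against stimulated WT Treg the members' median was 0.51 higher, with 73 of 76 higher, against 62.6% of all genes, whose median was 0.14. With the block 51 rose and none fell, against 19.8% of all genes higher and 7.41% lower; 0 were called without the block, against 1.01% of all genes, and 2 had an unadjusted p under 0.05. Without the block the members' median was -0.12, of opposite sign, and the same WT Treg mean enters. Leaving out either WT Treg stim library left 27 or 33 called. Scaling by size factors left 24 called, with a median of 0.34. Rpl24 was 43.2 against 23.4 FPKM, Rpl39 591.6 against 334.7, and Rplp1 2883 against 1472. With the block 16 of 34 ribosome biogenesis genes fell and none rose, and 48 of 76 mitochondrial ribosomal protein genes rose; without it 1 biogenesis gene fell and no mitochondrial one was called. The 8 cell cycle genes summed to 631.2 FPKM there and 305.8 in stimulated WT Treg of run 4, and the nuclear-retained transcripts to 330.3 against 486.9. Cytotoxic and NK cell markers summed to 81.94 FPKM against 17.54, myeloid markers to 147.3 against 80.61 and erythroid markers to 23.54 against 5.18. B cell markers summed to 6.49 FPKM against 5.40 and T cell markers to 1406 against 1102. The part of these lists in the result was not tested. Whether the response to stimulation differs between p65KO and WT Treg was not tested for this lone library.

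Between resting WT Treg and WT Tconv the members' median difference (Treg minus Tconv) was -0.17 in run 3 and -0.09 in run 4, beside -0.11 and -0.06 over all genes, and 52 members were lower in both pairs, against 50.8% of all genes. Without a run term 0 of 76 were called, against 12.6% of all genes, and 0 had an unadjusted p under 0.05; there the median was 0.27, of opposite sign, and 2 of the 4 WT Treg libraries come from runs without Tconv. With the block 15 fell and none rose, against 26.4% of all genes lower and 19.5% higher, so the members' shares were below the background in both directions. Rps24 was 1711 FPKM in Tconv and 1185 in Treg in run 3, and 710.9 and 557.2 in run 4, a fall of 0.44 ± 0.09. Rpl35a fell by 0.32 ± 0.07 and Rpl14 by 0.39 ± 0.10, and Rps2 had the smallest p among members that were higher (0.25 ± 0.11, adjusted p = 0.0746). Leaving out WT Tconv replicate 1 left 1 of the 15 called, WT Treg replicate 3 or WT Tconv replicate 2 left 5 each, and WT Treg replicate 4 left 6.

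Of 34 ribosome biogenesis genes, 28 were higher in resting Treg than in Tconv and 2 lower in the block fit, with a median of 0.69, against 10 and 1 without the block. In the block fit Myc rose by 2.95: it was 267.0 and 270.1 FPKM in WT Treg of runs 3 and 4 and 29.9 and 33.9 in WT Tconv. The nucleolar protein genes Nop58 and Nop56 rose by 1.27 and 1.14. Larp1 rose by 1.11, and the translation repressor gene Eif4ebp2 fell by 1.10.

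After 3 h of stimulation WT Tconv had lower ribosomal protein transcripts, and biogenesis genes rose. The members' median was 0.35 lower in run 3 and 0.21 lower in run 4, and 65 of 76 were lower in both pairs, against 51.2% of all genes, whose medians were -0.10 and -0.08. In the fit without a run term 0 of 76 were called, against 11.9% of all genes, and 0 had an unadjusted p under 0.05. With the block 30 fell and none rose, against 25.8% of all genes lower and 17.3% higher. Rps28 fell by 0.65 ± 0.15, from 1278 to 919.0 FPKM in run 3 and from 247.0 to 138.3 in run 4. Rpl3, which lies next to the peptidyl transferase centre, fell by 0.44 ± 0.10 (523.2 to 386.6 and 170.5 to 125.1 FPKM). Rpl30 had the smallest p among members that were higher (0.32 ± 0.15, adjusted p = 0.0996). The count of 30 fell whichever WT Tconv library, resting or stimulated, was left out. The counts so reached are given with the processing alternatives below. The count was higher without the 3 libraries with markers of other cells named above.

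In the same cells 30 of 34 biogenesis genes rose and none fell with the block (26 and none without it), with a median of 1.62, and Myc rose by 3.57. The RNA polymerase I subunit gene Polr1b rose by 2.3 and the pre-rRNA processing gene Rrp1b by 2.86. Mitochondrial ribosomal protein genes rose in 27 of 76 and fell in 3 with the block, and in 9 and 1 without it. Of the translation factors, Npm1 rose by 0.62, while Eef2 fell by 0.61, Eif3f by 0.45 and Eef1a1 by 0.31.

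**Figure D5:**
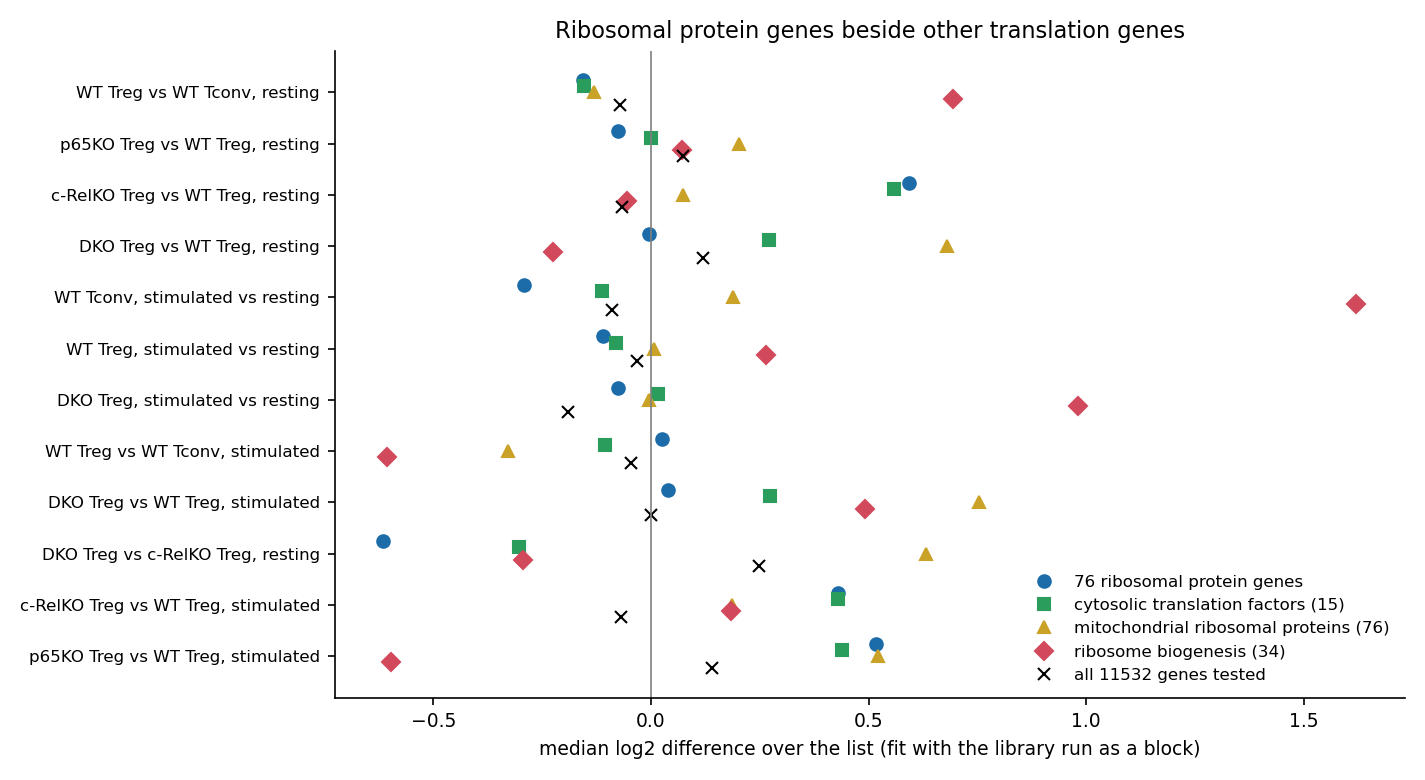
Median log2 difference over the ribosomal protein genes and 3 other lists of translation genes, and over all genes tested, in each comparison (y axis), from the run-block fit. After stimulation of WT Tconv the ribosomal protein genes sit at -0.29 and the biogenesis genes at 1.62; in c-RelKO against WT Treg at rest they sit at 0.59 and -0.06.

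In WT Treg no member was called after the same stimulation, either without a run term or in the run-block fit. A block by the replicate number in the titles did call members, as given with the processing alternatives below. The members' median differed by -0.11 in run 3 and -0.14 in run 4, and 61 of 76 were lower in both pairs, against 38.3% of all genes. The members' median without the run term was -0.52. No gene was called in either fit (0.0% of all genes: 0 of 11532, and 0 of 76 members); at an unadjusted p under 0.05 there were 311 genes and 0 members without the block and 344 genes and 5 members with it. The smallest p among lower members in the block fit was that of Rpl17, 376.0 to 325.1 FPKM in run 3 and 103.5 to 82.8 in run 4 (difference -0.25 ± 0.09, adjusted p = 0.999). Biogenesis genes had a median of 0.26 with none called. The difference between the responses of WT Treg and WT Tconv was tested directly: 0 of 76 members were called in either fit, against 1.03% of all genes without the block and 7.71% higher and 8.26% lower with it, and 0 and 2 had an unadjusted p under 0.05. Of the biogenesis genes, 28 of 34 had a smaller response in Treg in the block fit, with a median of -1.32, and 7 without the block.

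DKO Treg responded with a median member difference of -0.11 in run 3 and -0.03 in run 4, while the median over all genes was -0.17 and -0.21. In both pairs 46 of 76 members were lower, against 60.8% of all genes. No member was called without the block, against 9.99% of all genes, and 0 had an unadjusted p under 0.05. With the block 1 rose, against 11.3% of all genes higher and 30.8% lower: Rps19 was 167.5 FPKM at rest and 396.1 stimulated in run 3, and 107.6 and 165.8 in run 4, a rise of 0.93 ± 0.23 (adjusted p = 0.00662). The call was lost without DKO Treg replicate 1. Size factors turned the members' median from -0.07 to 0.11. Of the biogenesis genes 31 of 34 rose with the block and 21 without it, with a median of 0.98. In the test of the difference between the responses of DKO and WT Treg, Rps19 alone was called with the block (higher, against 4.54% of all genes higher and 9.44% lower), and none without it, against 0.971%. Of the 10 libraries in this test, leaving out 1 at a time ended the call for 8: WT Treg replicates 1 to 3, both WT Treg stim, DKO Treg replicate 1 and both DKO Treg stim libraries.

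Stimulated WT Treg and WT Tconv had members at similar medians, with differences of 0.08 in run 3 and -0.03 in run 4. None of 76 was called without the block, against 6.64% of all genes, and 0 had an unadjusted p under 0.05. With the block Rpl34 rose and Rpl30 and Rpl14 fell, against 16.8% of all genes higher and 20.2% lower. Leaving out either WT Treg stim library left 1 call. Rpl34 was 425.8 against 336.0 FPKM in run 3 and 94.8 against 55.9 in run 4, and Rpl30 37.3 against 64.2 and 39.2 against 47.1. Biogenesis genes were lower in Treg in 25 of 34 with the block and 9 without it, with a median of -0.61.

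The TAT-Cre set has 1 library a group, so its differences have no replicate check. The members' median was 0.10 higher in the WT Treg than in the WT Tconv control, with 54 of 76 higher, near the 67.8% of all genes that were higher, whose median was 0.21. Against the WT Treg control the median was -0.03 in the library labelled FoxP3 del, with 49 of 76 lower, against 40.4% of all genes, whose median was 0.05. It was -0.17 in the library labelled NFkB del, with 63 of 76 lower, against 50.2% of all genes, whose median was -0.0009. Rel was 38.7 FPKM in that library and 171.3 in the control, and Rela 123.7 and 124.6. Rps28 was 163.5 FPKM in the WT Treg control, 80.6 in the library labelled FoxP3 del and 66.3 in that labelled NFkB del. Rplp0 was 1016 to 1069 FPKM in all 4 libraries.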

How the data were processed

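RNA-seq libraries of mouse T cells were made with a TruSeq RNA kit, per the labels' protocols. The authors deposited gene-level FPKM values with confidence bounds, in 1 file for each library. The submitters' processing notes name TopHat, Cufflinks, bcl2fastq and the genome build mm9. The sources read here give no versions, annotation or strand setting. Symbols with any entry not marked OK were left out (250 of 23235), and entries of 1 symbol were summed. No counts are in the files, so depth was estimated from the confidence bounds, and no count test was run.

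Of the 21 libraries outside the TAT-Cre set, 2 or more had to reach 1 FPKM for a gene to be tested (11532 genes). Values of log2(FPKM + 1) were fitted in limma 3.58.1 (R 4.3.3), with a trend on the mean, 10 group means and Benjamini-Hochberg adjustment over all genes; called means an adjusted p under 0.05. Differences on this scale understate changes of genes with low FPKM. The fit was tested on simulated data. A second fit had the library run as a block. Libraries of the same run deviated from their group means together (mean correlation 0.432 over 51 pairs, lowest 0.036), which comes from the data and not from the labels. Those sharing a replicate number in the titles did so less (mean 0.222, lowest -0.499), against a mean of -0.127 for different numbers. Single-library groups take their spread from the others.

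Members, gene lists and comparisons were chosen with earlier results of these data known. Named genes were, per comparison, up to 3 called members of smallest p in each direction, or else the 1 of smallest p, plus the 3 highest and 3 lowest, the 5 most variable, and Rplp0 to Rplp2, Rps27a, Rpl5, Rpl11, Rps6 and Rpl22. The same rule was applied to the block fit after its values were seen, and other members were chosen after their values were seen. Promoter windows were from RefSeq on GRCm38.p6 and pseudogenes from GENCODE M21 with blastn 2.17.0; mm9 and GRCm38 coordinates were not mixed. Alternatives were another pseudocount (0.1), no filter, no trend, size factors, the highest entry per symbol, and leaving out libraries. A few genes that the rules above would name are not reported here.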

Additional observations from a re-analysis of the deposited data

Results flagged for a closer look

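Of the 4 resting WT Treg libraries, replicate 4 was the only one of run 4. It stood apart from the other 3 in 7 of 16 results looked at for a lone sample. The mark was a gap over 0.829 of the range, which chance alone passes in about 1 in 20 results. The 16 results come from the same libraries and are not independent, so 7 of 16 cannot be set against that rate. The median over the members was 7.44 on the log2(FPKM + 1) scale in replicate 4. Rpl5 was 7.04, Rpl9 5.01, Rplp2 6.73, Rps12 2.67, Rps27a 6.00 and Rps6 8.84 in that library on the same scale. The other run 4 libraries had similarly low medians (7.29 to 8.0).

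Rps19 differed in its response to stimulation between DKO and WT Treg in the run-block fit, by 1.05 on the log2 scale (adjusted p = 0.0447, limma), and was not called without the block (1.57, adjusted p = 0.733). Without DKO Treg replicate 1, where Rps19 was 167.5 FPKM, the difference was 0.714 and not called. Leaving out each of the 10 libraries in turn gave 0.714 to 1.4, and the call held in 2 of these 10 fits.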

How the results depend on the processing

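Without a run term 0 members were called in each of the 14 comparisons. With the replicate block by library run the counts were 15 for resting Treg against Tconv, 72 for c-RelKO, 12 for DKO, 30 for stimulated Tconv, 1 for stimulated DKO, 3 for stimulated Treg against Tconv, 18 for stimulated DKO against WT, 66 for DKO against c-RelKO, 30 for stimulated c-RelKO, 51 for stimulated p65KO and 1 for the DKO response against the WT response. Libraries sharing a number in the titles deviated together less than those of the same run (mean correlation of deviations 0.222 against 0.432). The lowest was -0.499, and the mean for different numbers was -0.127. A replicate block by that number gave 2, 14 (DKO), 18 (stimulated Treg), 2 (stimulated DKO against WT), 7 (DKO against c-RelKO) and 1 (DKO response). Without a block, size factors, from all genes or without the members, gave 3 (c-RelKO) and 4 (DKO against c-RelKO), and no trend gave 3, 1 (stimulated DKO against WT) and 5. Without 3 libraries with markers of other cells, stimulated DKO against WT and DKO against c-RelKO had 1 each. Leaving out each library in turn gave 0 to 1 for Treg against Tconv, c-RelKO, DKO and stimulated Tconv.

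Within the run block, alternatives added after the values were seen moved further results. Size factors changed counts to 6 (Treg against Tconv), 1 (p65KO), 28 (DKO), 19 (stimulated Tconv), 2 (stimulated DKO), 6 (stimulated Treg against Tconv) and 24 (stimulated p65KO), and medians to -0.061 (Treg against Tconv), -0.162 (p65KO), 0.730 (c-RelKO), -0.151 (DKO), 0.110 (stimulated DKO), -0.901 (DKO against c-RelKO), 0.524 (stimulated c-RelKO), 0.335 (stimulated p65KO) and 0.213 (DKO response). They moved the median of all genes in c-RelKO from -0.07 to 0.05 and in DKO from 0.12 to -0.003. Without the 3 libraries the p65KO median was 0.067 and the DKO response had 0 calls. Leaving out 1 library in turn gave counts of 1 to 12 (Treg against Tconv), 0 to 1 (p65KO), 66 to 71 (c-RelKO), 8 to 13 (DKO), 5 to 21 (stimulated Tconv; 10 without WT Tconv replicate 2), 0 to 0 (stimulated Treg), 0 to 2 (stimulated DKO), 1 to 3 (stimulated Treg against Tconv), 6 to 13 (stimulated DKO against WT), 60 to 67 (DKO against c-RelKO), 4 to 5 (stimulated c-RelKO), 27 to 33 (stimulated p65KO), 0 to 1 (the DKO response) and 0 to 1 (the Treg against the Tconv response). The cause of these changes was not tested. Pseudocount, filter and highest entry per symbol moved no count of calls by over 1.5 times. Nothing in the files gives read counts, so depth limits were not computed.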
